A study of Homo sapiens with 4 samples.

Results

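The genes described here are 9 interferon-stimulated genes, *ISG15*, *IFIH1*, *DDX58*, *IFIT1*, *IFIT2*, *IFIT3*, *IFI6*, *MX1* and *OAS1*, taken by symbol from a table of 16811 genes in MCF12A cells. All 9 were listed, and each was compared between edited and WT cells whatever its level. MCF12A, a line of human breast epithelial cells that does not form tumours, was grown with horse serum, EGF, hydrocortisone, cholera toxin and insulin. The edited cells (genotype C1orf132 KO) were targeted with CRISPR/Cas9 to delete the p2 promoter of *C1orf132*, the host gene of miR-29b2 and miR-29c. There were 2 libraries of edited and 2 of wild-type (WT) cells, made from poly(A)-selected RNA. The labels name no interferon or virus in either group. The cultures are taken as unstimulated, which was not measured. Edited colonies were grown from single sorted cells after transfection, and the study describes the target as reduced in them. The colony behind the RNA is not named, so the deletion and other differences between a colony and the parental cells cannot be told apart. *C1orf132* was not analysed here, and nothing but its label gives the group of a library.

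Interferons are secreted proteins that warn cells of infection. Cytosolic sensors of foreign RNA, among them the products of *IFIH1* (MDA5) and *DDX58* (RIG-I), start the transcription of interferon genes. Interferon then binds its receptor, and the kinases JAK1 and TYK2 activate a complex of transcription factors. This complex binds the interferon-stimulated response element (ISRE) in the promoters of interferon-stimulated genes, whose products block viral entry, RNA translation and replication. Many of these genes, the RNA sensors included, are also expressed at a low level without any stimulus.

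The deposited values were a normalized expression signal, by a normalization that is not given in the sources used here. They were taken as per transcript length, which was not settled, and levels of different genes are set side by side on that reading. The values summed to between 1444640 and 1655440 per library. On the same reading, a single read on 1 kb of transcript would add about 0.105 to 0.125, estimated from low genes with a single transcript. Groups were compared with limma on log2(value + 1) over all 16811 genes, and a gene was called at an adjusted p (Benjamini-Hochberg) under 0.05. The added 1 shrinks the fold change of genes with values near 1 or below. With 2 libraries a group, the smallest p of an exact two-sided permutation test is 0.33, so the calls rest on the variance that limma shares across genes. All 10 mammary epithelial marker genes were listed in these libraries, 8 of them with a log2 fold change below 0 and 2 above. *KRT5*, 1 of those below, was at 3514 and 3056 in edited and 4590 and 11910 in WT replicates 1 and 2.

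Most of the 9 genes were at lower values in edited cells, and *IFIH1* and *OAS1* fell past the threshold. Of the 9 genes, 2 were called lower and 0 higher at an adjusted p under 0.05 (limma), beside 3.40% of all genes called lower and 1.33% called higher. At an unadjusted p under 0.05, 5 of the 9 were lower and 0 were higher, beside 15.0% and 14.2% of all genes. Both edited values lay below both WT values for 6 of the 9 genes, as they did for 30.2% of all genes, and above them for 1, as for 31.4% of all genes. The median log2 fold change of the 9 genes was -0.88, and that of all genes was 0.01. Summed over the 9 genes, edited replicates 1 and 2 reached 92.5 and 91.7, and WT replicates 1 and 2 reached 103.6 and 154.3.

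**Figure D1:**
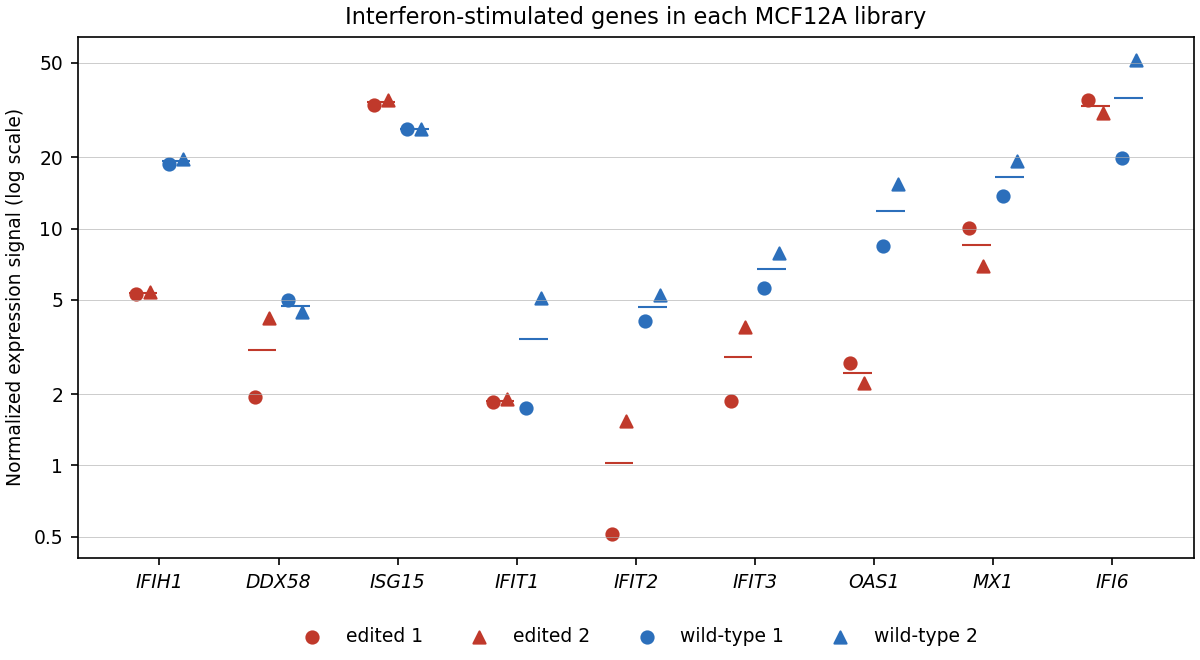
Normalized expression signal (log axis) of the 9 interferon-stimulated genes in each library, edited libraries in red and WT libraries in blue, with circles for replicate 1, triangles for replicate 2 and short lines for the group means (n = 2). *IFIH1* was at 5.30 and 5.38 in edited and at 18.8 and 19.6 in WT cells, while the WT values of *IFI6*, 19.9 and 51.2, lay on both sides of the edited ones.

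The RNA sensors were taken first. *IFIH1* encodes MDA5, a helicase that recognizes long double-stranded RNA in the cytosol. It lies on chromosome 2 (162267074 to 162318684 on GRCh38). Edited replicates 1 and 2 had values of 5.30 and 5.38, against 18.8 and 19.6 in WT replicates 1 and 2. The replicates of each group were nearly equal and the groups lay far apart, with means of 5.34 ± 0.0568 (SD, n = 2) and 19.2 ± 0.599 (SD, n = 2), a WT level 3.60 times the edited one. About 162 and 183 reads were estimated in the edited and 539 and 612 in the WT libraries. The edited estimates, here and for the other genes, could be higher, so reads are not compared between groups. The log2 fold change was -1.67 (standard error 0.19, 95% interval -2.16 to -1.19, adjusted p = 0.0237 from limma). In the 4 fits that each lack 1 library it was between -1.71 and -1.64. The call was lost in each, but with 1 library in a group fewer genes were called over the whole table.

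*DDX58* (RIGI in current nomenclature) encodes RIG-I, which recognizes short double-stranded RNA with a 5 prime triphosphate. It lies on chromosome 9 (32455302 to 32526196 on GRCh38). Edited replicates 1 and 2 had values of 1.94 and 4.19, and WT replicates 1 and 2 had 5.00 and 4.45. Edited replicate 1 stood low, while edited replicate 2 was just under the WT libraries. A log2 fold change of -0.55 (standard error 0.34, 95% interval -1.40 to 0.30) did not pass the threshold (adjusted p = 0.329, limma). Leaving out edited replicate 1 gave -0.14, and leaving out edited replicate 2 gave -0.96. Genes of chromosome 9 had a median log2 fold change of -0.22 (559 genes), against 0.00 to 0.07 on the other 5 chromosomes that hold the 9 genes, and the part of the chromosome in the value of *DDX58* was not tested. Within a library, the level of *IFIH1* was 2.74 and 1.28 times that of *DDX58* in edited and 3.76 and 4.42 times in WT cells, so *IFIH1* was the higher of both sensors in all 4 libraries.

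*ISG15* encodes a ubiquitin-like protein that is conjugated to other proteins and is also secreted. It lies on chromosome 1 (1013497 to 1014540 on GRCh38). Its value was 33.3 and 34.97 in edited and 26.4 and 26.2 in WT replicates 1 and 2, from about 134 to 212 estimated reads per library. It was the one gene of the 9 with both edited values above both WT values, and the replicates of each group were close. The ratio of means was 1.30, and the log2 fold change of 0.36 (standard error 0.17, 95% interval -0.07 to 0.80) did not pass the threshold (adjusted p = 0.224, limma).

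The 3 *IFIT* genes encode proteins with tetratricopeptide repeats, of which IFIT1 binds viral RNA that lacks the cap methylation of host messengers and IFIT3 binds and stabilizes IFIT1. They lie side by side on chromosome 10, with *IFIT2* at 89302046 to 89309271, *IFIT3* at 89327997 to 89340968 and *IFIT1* at 89392623 to 89406487 (GRCh38). All 3 were at low levels, from 0.512 to 7.87, and the transcripts are long enough that these correspond to about 15 to 190 estimated reads. How reads shared between related genes were assigned is not given in the sources used here.

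*IFIT2* was at 0.512 and 1.54 in edited and at 4.08 and 5.26 in WT replicates 1 and 2. Both edited values lay below both WT values, and the WT mean was 4.55 times the edited one. The log2 fold change was -1.53 (standard error 0.34, 95% interval -2.38 to -0.67), which did not pass after adjustment (adjusted p = 0.0663, limma). *IFIT3* was at 1.87 and 3.85 in edited and at 5.62 and 7.87 in WT replicates 1 and 2, again without overlap between the groups. The change of -1.04 on the log2 scale (standard error 0.34) missed the threshold (adjusted p = 0.124, limma), and the WT mean was 2.36 times the edited one.

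*IFIT1* was at 1.85 and 1.91 in edited and at 1.75 and 5.09 in WT replicates 1 and 2. The groups overlapped, since WT replicate 1 was the lowest of all 4 libraries and WT replicate 2 the highest. Its change of -0.51 on the log2 scale (standard error 0.42) did not pass (adjusted p = 0.468, limma). It was -1.08 without WT replicate 1 and 0.07 without WT replicate 2, so its direction rested on 1 library. *IFIT5*, the neighbour of *IFIT1* in the same cluster (89414568 to 89420997), was chosen for its position after its values were seen. It was at 5.58 and 4.84 in edited and 5.45 and 5.44 in WT cells (log2 fold change -0.06, adjusted p = 0.892, limma). Within a library, *IFIT2* was 0.277 and 0.807 times *IFIT1* in edited and 2.33 and 1.03 times *IFIT1* in WT replicates 1 and 2. Both genes were nearly equal in WT replicate 2, so *IFIT2* stood clearly above *IFIT1* in WT replicate 1 only.

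*OAS1* encodes an oligoadenylate synthetase, which senses double-stranded RNA and makes the messenger that activates RNase L. It lies on chromosome 12 (112906962 to 112933219 on GRCh38). Its value was 2.70 and 2.22 in edited and 8.41 and 15.3 in WT replicates 1 and 2, from about 38, 34, 110 and 218 estimated reads. Both edited libraries were low and alike, and the WT libraries were high but differed from each other. The WT mean was 4.83 times the edited one. On the log2 scale the change was -1.84 (standard error 0.33, 95% interval -2.67 to -1.02), just past the threshold (adjusted p = 0.0476, limma). With each library left out, the size of the change ran from -2.24 to -1.45. The call was lost in each of these fits, in which fewer genes were called over the whole table.

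The other synthetase genes of the same cluster lie downstream of *OAS1*. *OAS2* was listed at 0 and 0.0714 in edited and at 2.21 and 3.17 in WT replicates 1 and 2 (log2 fold change -1.82, adjusted p = 0.0384, limma). *OAS3*, which with *OASL* was picked as a relative of *OAS1* after its values were seen, was at 8.20 and 9.36 in edited and 20.2 and 40.0 in WT cells (log2 fold change -1.59, adjusted p = 0.0645, limma). The ratio of *OAS1* to *OAS3* was 0.330 and 0.237 in edited and 0.417 and 0.383 in WT cells. *OASL*, which lies outside the cluster, had overlapping groups (log2 fold change 0.12, adjusted p = 0.867, limma).

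*MX1* encodes a dynamin-like GTPase that traps viral nucleocapsids. It lies on chromosome 21 (41420558 to 41459214 on GRCh38). Its value was 10.0 and 6.98 in edited and 13.7 and 19.2 in WT replicates 1 and 2. The groups did not overlap, and edited replicate 1, the higher of the edited libraries, came closest to the WT ones. This gave a log2 fold change of -0.88 (standard error 0.28, 95% interval -1.58 to -0.18), without passing the threshold (adjusted p = 0.115, limma).

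*IFI6* encodes a small membrane protein with antiviral and anti-apoptotic roles. It lies on chromosome 1 (27666064 to 27672192 on GRCh38), far from *ISG15*. Its value was 35.01 and 30.7 in edited and 19.9 and 51.2 in WT replicates 1 and 2. The WT libraries stood apart from each other by more than the groups did, so that both edited values lay between them. The log2 fold change was 0.03 (standard error 0.44, 95% interval -1.09 to 1.16, adjusted p = 0.971 from limma), an interval that leaves room for more than a doubling or halving of value + 1. Its sign turned with the scaling (-0.084 with equal library totals and -0.027 with cyclic loess normalization), and it was 0.69 without WT replicate 2, -0.63 without WT replicate 1 and -0.06 without edited replicate 1.

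**Figure D2:**
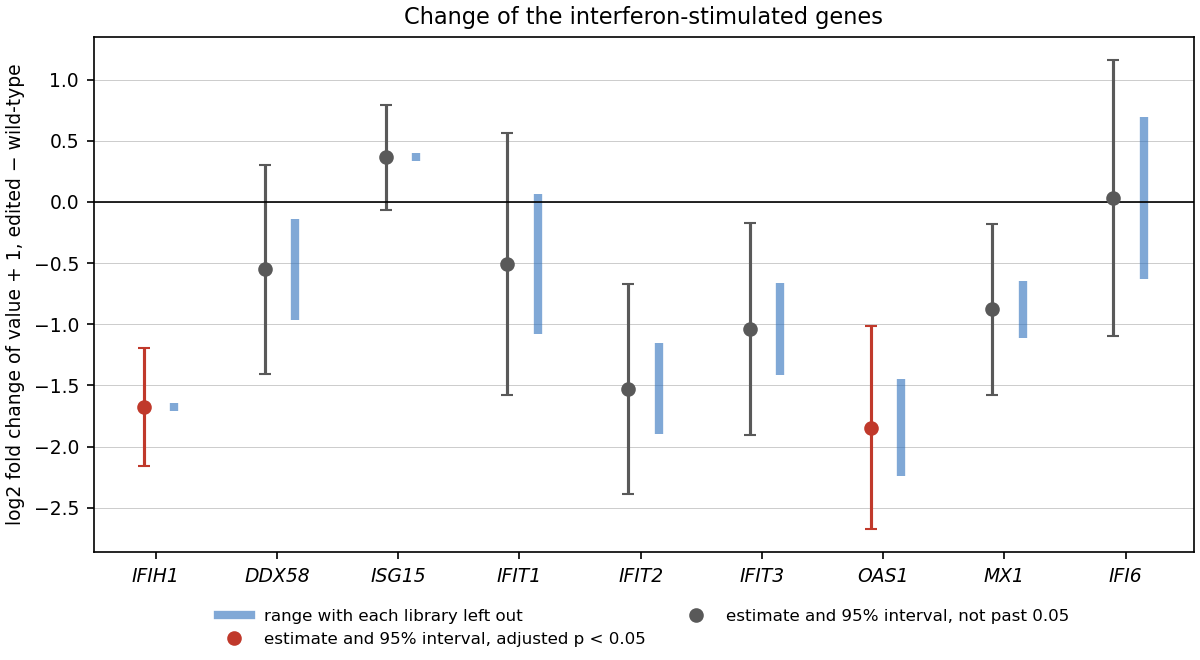
Log2 fold change of value + 1, edited minus WT, of the 9 genes, with 95% intervals from limma (points in red past an adjusted p of 0.05, in grey otherwise) and, as a blue bar, the range over the 4 fits that each leave out 1 library. *IFIH1* kept a narrow range of -1.71 to -1.64, while the ranges of *IFIT1* and *IFI6* crossed 0.

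By level, *IFI6* and *ISG15* were the highest of the 9 genes in both groups, with means of 32.8 ± 3.06 and 34.1 ± 1.15 (SD, n = 2) in edited cells, which differ by less than the spread of *IFI6*. They were higher than 67.1% and 67.9% of all genes there. *IFIT2* was the lowest in edited cells (1.03 ± 0.726, above 7.62% of all genes) and *IFIT1* in WT cells (3.42 ± 2.36, above 24.6%). *OAS1* was above 46.1% of all genes in WT cells (11.9 ± 4.90) and above 22.1% in edited cells (2.46 ± 0.343). Inside a library, *OAS1* was 0.0811 and 0.0635 times *ISG15* in edited and 0.319 and 0.586 times *ISG15* in WT cells. Such a ratio is free of any common factor per library, and it shows that these genes changed unequally.

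Replicates of the same group also differed in these genes, in WT and in edited cells. Wild-type replicate 2 was higher than WT replicate 1 in 7 of the 9 genes (77.8%), with a median difference in log2(value + 1) of 0.42, beside 45.0% of all genes and a median of -0.05. The largest of these differences were those of *IFI6* (1.32), *IFIT1* (1.15) and *OAS1* (0.80). Among other interferon-stimulated effector genes, WT replicate 2 was higher in 39 of 51 (76.5%), with a median difference of 0.32. In edited cells, replicate 2 was higher than replicate 1 in 6 of the 9 genes with a median difference of 0.03. Over all genes this held for 8017 of 16811, with a median of -0.02. The largest differences between edited replicates were those of *DDX58* (0.82), *IFIT3* (0.76) and *IFIT2* (0.75). Among the other effector genes, edited replicate 2 was higher in 37 of 51, with a median difference of 0.27. The replicates of *IFIH1* and *ISG15* differed by at most 0.07 in both groups.

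**Figure D3:**
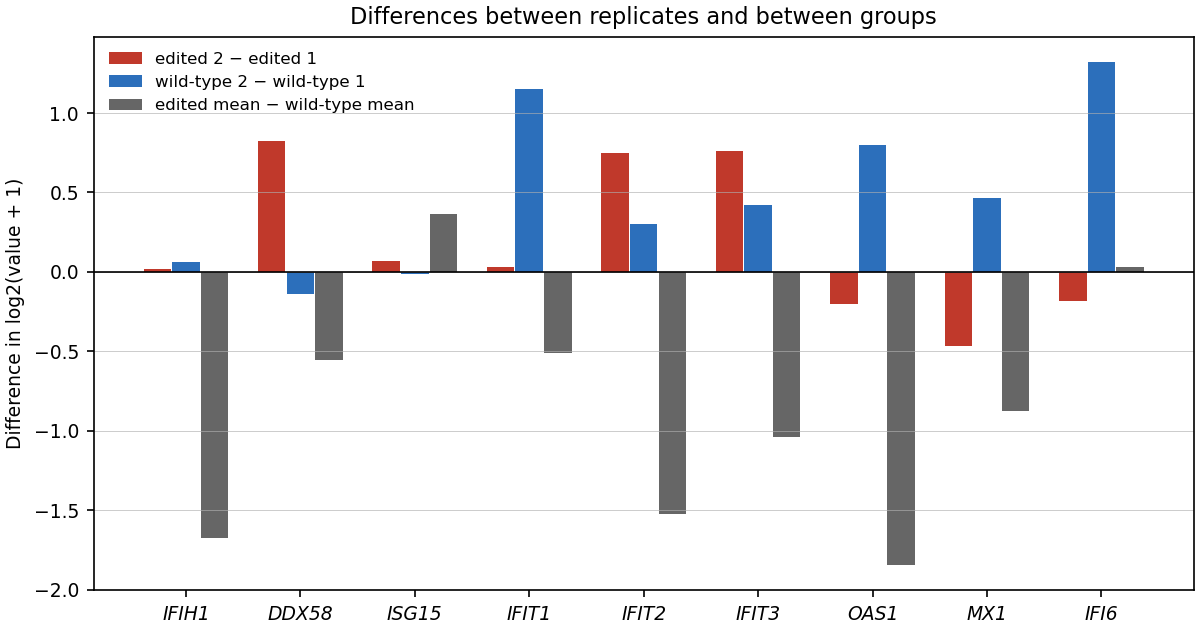
Differences in log2(value + 1) for each of the 9 genes, between the edited replicates (red), between the WT replicates (blue) and between the group means (grey). For *IFI6* and *IFIT1* the bar between WT replicates (1.32 and 1.15) is longer than the bar between groups, and for *IFIH1* both replicate bars are near 0.

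The promoters of these genes were searched for the core of the ISRE, GAAANNGAAA on either strand (TTTCNNTTTC when read on the other), in RefSeq windows of 250 bases before to 50 after each annotated start (GRCh38.p14). RefSeq windows were matched for 8 of the 9 genes, all but *IFIT2*. The motif was found for 6 of these 8, *ISG15*, *IFI6*, *IFIH1*, *IFIT1*, *IFIT3* and *MX1*, while 4.38% of 27305 genes with a window held it in at least 1. No match lay in the windows of *OAS1* and *DDX58*. Only the exact gap NN was searched, so other spacings of GAAA would be missed. It was also found for 31 of 46 matched genes (67.4%) of the other interferon-stimulated effectors and for 0 of 10 genes of the receptors and JAK-STAT relay. The stretches around the matches are shown for a gene that was called and for others that were not. The motif is in capitals, and the strand shown is the one that reads like the RNA.
*IFIH1*, which fell, chr2:162318818-162318853, minus strand, first match 159 bases before the start: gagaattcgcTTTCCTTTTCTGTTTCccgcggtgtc
*IFIH1*, nearest match to the start, chr2:162318686-162318715, minus strand, 21 bases before it: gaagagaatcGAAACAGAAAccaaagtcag
*ISG15*, higher in both edited libraries without passing, chr1:1013374-1013409, plus strand, first match 113 bases before the start: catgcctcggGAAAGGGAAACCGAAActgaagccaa
*IFIT1*, with overlapping groups, chr10:89392497-89392539, plus strand, first match 116 bases before the start: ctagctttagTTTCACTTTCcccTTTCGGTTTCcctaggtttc
*IFIT3*, lower in both edited libraries without passing, chr10:89327831-89327894, plus strand, first match 156 bases before the start: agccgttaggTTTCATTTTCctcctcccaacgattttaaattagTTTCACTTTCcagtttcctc
*IFI6*, with overlapping groups, chr1:27672266-27672358, minus strand, first match 156 bases before the start: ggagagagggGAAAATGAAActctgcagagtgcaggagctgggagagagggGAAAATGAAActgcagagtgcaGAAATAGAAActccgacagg

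In *ISG15* and at the upstream matches of *IFIH1*, 2 matches overlap, and *IFI6* holds 3 in its window. Genes with the motif thus included *IFIH1*, which was called lower, and *ISG15* and *IFI6*, which were not. *OAS1*, the other gene called, had no match to this pattern in its window, and other spacings of GAAA were not searched. A match is a description of the letters and not of binding, which was not measured.

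Other genes of the pathway were grouped by role. Of 58 other interferon-stimulated effectors, 51 were listed and 7 were not analysed here. Of the 51, 9 were called lower and 0 higher at an adjusted p under 0.05 (limma), beside 3.40% and 1.33% of all genes. At an unadjusted p under 0.05, 26 were lower and 0 higher, beside 15.0% and 14.2% of all genes. Their median log2 fold change was -0.92, close to the -0.88 of the 9 genes. *TNFSF10*, which encodes the death receptor ligand TRAIL, had the largest change, from 208.1 and 142.4 in WT to 1.23 and 6.78 in edited replicates 1 and 2 (log2 fold change -5.38, adjusted p = 0.0228, limma). *APOL1*, an apolipoprotein gene, was at 20.6 and 36.2 in WT and 1.47 and 2.31 in edited cells (-3.31, adjusted p = 0.0182). *UBA7*, the activating enzyme for ISG15, was at 37.0 and 55.1 in WT and 9.87 and 13.2 in edited cells (-1.90, adjusted p = 0.0347), beside an *ISG15* level that did not fall. *EPSTI1* fell by 1.67 on the log2 scale (adjusted p = 0.0396). The remaining genes called in this list were *UBE2L6*, which encodes the conjugating enzyme for ISG15, with *RTP4*, *PARP9* and *DTX3L*, at log2 fold changes of -1.46, -1.64, -1.39 and -1.62. Without either WT replicate, none of these genes was called, and neither was any other gene of the table (limma).

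The receptors and the JAK-STAT relay that stand before these genes were all listed. Of the 12, 0 were called in either direction (limma), while 4 were lower and 0 higher at an unadjusted p under 0.05 (15.0% and 14.2% of all genes), and the median log2 fold change was -0.59. *STAT2*, a transcription factor gene of the relay, was at 21.8 and 34.7 in edited and 42.2 and 42.9 in WT replicates 1 and 2 (log2 fold change -0.61, adjusted p = 0.195, limma). Leaving out a library moved *STAT2* from -0.28 (no edited replicate 1) to -0.93 (no edited replicate 2). *IRF9*, whose product joins STAT2 on the DNA, was at 19.5 and 29.7 in edited and 54.9 and 51.3 in WT cells (-1.11, adjusted p = 0.0669). Both edited values of *STAT2* and *IRF9* lay below both WT values, as for *IFIT2*, *IFIT3* and 30.2% of all genes, and neither gene passed the threshold.

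Of 17 other genes of nucleic acid sensing, 13 were listed and 0 were called (limma), with 4 lower and 0 higher at an unadjusted p under 0.05 (all genes 15.0% and 14.2%) and a median log2 fold change of -0.25. Of 9 interferon ligand genes, only *IFNE* was listed, at 1.58 and 3.23 in edited and 1.98 and 3.15 in WT cells (log2 fold change -0.09, adjusted p = 0.893, limma). The other ligand genes, and *IRF7* among the sensing genes, were not analysed here. Of 9 negative regulators, 0 were called, with 2 higher and 2 lower at an unadjusted p under 0.05, beside the same shares of all genes. *USP18*, the protease that removes ISG15 from proteins, was at 3.75 and 2.72 in edited and 2.07 and 3.17 in WT cells (log2 fold change 0.23, adjusted p = 0.631, and 0.012 to 0.46 with a library left out). Of 13 genes that respond to interferon gamma, 4 were listed and, beside 3.40% of all genes called lower, 1 was called lower. This was *IRF1*, a transcription factor gene, which was at 16.4 and 25.5 in edited and 94.2 and 108.8 in WT cells (log2 fold change -2.25, adjusted p = 0.0235, limma).

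**Figure D4:**
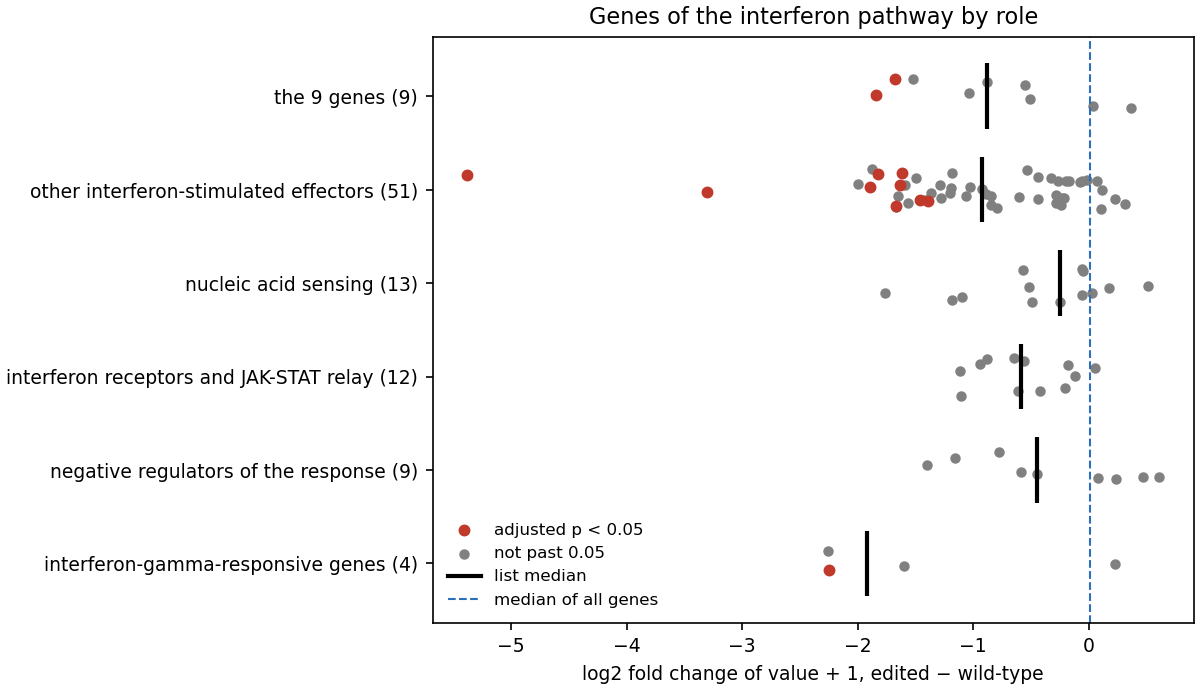
Log2 fold change of value + 1, edited minus WT, of each listed gene of the interferon pathway by role (number of genes in brackets), red past an adjusted p of 0.05 and grey otherwise, with the list median in black and the median of all genes (0.01) as a dashed line. The medians of the 9 genes (-0.88) and the other effectors (-0.92) lie left of those of the receptors and relay (-0.59), the negative regulators (-0.45) and the sensing genes (-0.25) and right of that of the 4 genes responding to interferon gamma (-1.92), and the points of each list are widely spread.

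Markers of cell type also moved between the groups. Of 10 mammary epithelial markers, 2 were called lower and 1 higher, beside 3.40% and 1.33% of all genes, and 7 were not called. Their summed value was 5025 to 6025 in edited and 11290 to 20460 in WT cells. Most of this sum was *KRT5* and *KRT17*, neither of which was called (adjusted p = 0.187 and 0.0628, limma). *TP63* and *CDH1* were the markers called lower, and *KRT8* was the one called higher. *CDH1* was at 3.89 and 1.54 in edited and 150.5 and 122.9 in WT replicates 1 and 2. *TP63* was at 12.6 and 31.2 in edited and 134.4 and 125.8 in WT cells. *KRT8* was at 378 and 365 in edited and 194.2 and 175.1 in WT cells. Of 12 leukocyte markers, 4 were listed, with a summed value of 42.6 to 60.6 in edited and 72.8 to 91.5 in WT cells, and *ITGAM* was called lower. Of 9 fibroblast markers, 3 were listed, with sums of 30.5 to 224.9 in edited and 52.3 to 78.0 in WT cells, and *COL1A1* was called lower. *DCN* was not called, at 15.1 and 105.0 in edited and 7.42 and 1.09 in WT replicates 1 and 2, with both edited libraries higher. The third listed fibroblast marker, *FAP*, had a log2 fold change of 0.08. None of the listed markers was at 0 in every library, and *PTPRC* and *CD3E* were not analysed here. The part of these markers in the values of the 9 genes was not tested, and fewer cells that express a gene cannot be told apart from less of its RNA per cell.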

How the data were processed

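The 4 libraries of MCF12A RNA, 2 per group with single 75-base reads, were grouped and numbered by their titles. The authors deposited a normalized expression signal per gene and library. Per the labels, Salmon and HISAT2 and the build hg38 were used; versions, annotation and normalization are not given in the sources used here. The values were not whole numbers. In genes with a single transcript, low values times transcript length (GENCODE version 44) were searched for multiples of a step. The best of many trial steps was kept, so a positive score was likely in advance. Scores were 2.93 and 2.5 in edited and 4.72 and 4.34 in WT replicates 1 and 2. On that basis the signal was taken as per length, which the search does not settle. Whole reads were not recovered and count tests were not used. In the edited libraries a smaller step scored higher, so estimated reads there could be higher. Reads carry no molecular identifier, so read numbers speak of counting error alone. The TruSeq kit named does not mark strand in its standard form, so antisense reads cannot be told apart.

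All 16811 genes were fitted with limma 3.58.1 in R 4.3.3 (lmFit, eBayes with trend) on log2(value + 1), with no filter, Benjamini-Hochberg adjustment and a threshold of 0.05. The paper's statistics section gives 0.05 and its RNA-seq text 0.001, which was an alternative. The fit was also run on simulated data with normal noise whose variance was set by level alone. This does not check the fit where genes of like level differ in spread. The 9 genes, the lists by role and the marker lists were chosen with earlier results of these data known, so no test was made over a list. Named genes were the 9, *STAT2*, *IRF9*, *IRF7* and *USP18*, and up to 5 called genes per list and direction whose higher group averaged 1 or more. A gene that the rule also names is not reported here. The study calls the libraries biological replicates, and the labels do not say whether they came from separate cultures, so p-values measure the spread between these libraries. Gene positions are those of RefSeq on GRCh38.p14, and promoter windows are RefSeq's. The bases after the start lay in a GENCODE transcript of the gene in 10 of 11 windows of the 9 genes. Alternatives covered the pseudocount, a filter, scaling, the variance trend, a replicate block, the threshold and each library left out. Python 3.11.15 was used for tables and figures.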

Additional observations from a re-analysis of the deposited data

How the results depend on the processing

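Of the 9 genes, 2 were called lower and 0 higher. The number called lower was 1 with pseudocounts of 0.1 and 5, a mean value of at least 10 (which kept 4 of the 9 genes), equal library totals and quantile normalization, *IFIH1* being called each time. It was 0 at a threshold of 0.001, and 0 to 0 with each library left out. Over all genes, 224 were called higher and 571 lower. At 0.001 these were 0 and 0 (4909 genes had an unadjusted p under 0.05). Those zeros hold for limma on this signal with 2 libraries a group. The paper reports genes passing its own RNA-seq threshold in both directions, and its procedure was not rerun here. The number higher was 127 with a pseudocount of 0.1. With each library left out, 0 to 28 genes were higher and 0 to 220 lower, 0 in both directions without WT replicate 1 or 2 (4169 and 2796 at an unadjusted p under 0.05, limma), where the lone library of a group was assumed to vary like the others. In the other pathway lists, 10 genes were called lower, and 0 to 6 with each library left out. The median log2 fold change of the 9 genes kept its sign under every alternative run.

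Signs that turned were those of *IFI6* (-0.084 with equal library totals, -0.027 with cyclic loess normalization, -0.63 to 0.69 with each library left out) and *IFIT1* (-1.08 to 0.066). The other 7 of the 9 genes kept their sign under every alternative. *OAS1* lost its call in 9 of 12 alternatives, with adjusted p from 0.0430 to 0.225, and *IFIH1* in 5 of 13, from 0.0202 to 0.209 (limma). The cause was not tested, apart from the fewer samples of the fits that leave out a library.

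The replicate numbers gave no sign of pairing between the libraries: deviations from the group means correlated at -0.0927 between edited replicate 1 and WT replicate 1. This is a single correlation, and the labels do not say whether same-numbered libraries were prepared together. With the replicate block, 17 genes were called higher and 108 lower, 0 of the 9 genes and 2 genes of the other lists lower (adjusted p = 0.0659 for *IFIH1* and 0.08 for *OAS1*, limma).

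Depth limits *IFIT2* most, with about 15 estimated reads in edited replicate 1.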
